A study of Mus musculus with 9 samples.

Results

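The histone genes described here are the clustered genes that the array annotation names with the prefix Hist and a cluster number. They were taken as every probe set of the signal table that carried a single gene symbol of that form, whatever its values. That gave 59 of the 21367 probe sets with 1 symbol, out of 22206 probe sets in all. By the core protein in the symbol, 5 are named for H1, 16 for H2A, 17 for H2B, 10 for H3 and 11 for H4. Hist3h2bb-ps of H2B and Hist1h2al of H2A match RefSeq symbols marked ps, for pseudogene, and are counted in these types. The H4 gene Hist1h4c was singled out with earlier results of these data known, so its values are a description and carry no test.

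The arrays measured RNA of olfactory bulbs from male mice of ICR, an outbred stock. It was hybridised on 9 whole-transcript microarrays. All mice were 8 weeks old when obtained and lived singly. All breathed an aerosol for 7 days in a whole-body diffusion system and went through the tail suspension test, a test of behavioural despair, after 30 min of inhalation. The vehicle group breathed 1% Tween 80 (3 arrays), another group 1% linalyl acetate (3 arrays) and the last group 10% linalyl acetate (3 arrays). Linalyl acetate (LA) is the fragrant ester that makes up much of lavender oil. The labels do not say whether the LA aerosols held Tween 80, or whether a sample was the bulb of a single mouse. The p-values below therefore measure the spread between these samples, which may in part be technical. The free-text descriptions of 5 samples, the 3 vehicle samples among them, name oral and injected treatments instead of inhalation, and that of vehicle replicate 3 names an injected agent other than in the remaining vehicle samples. The groups follow the titles, in which all 9 samples are inhalation samples.

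The genes of the Hist clusters supply the bulk of the nucleosome proteins during DNA synthesis. Histones H3 and H4 form the central tetramer, dimers of H2A and H2B flank it, and the linker histone H1 binds the DNA between nucleosomes. The mRNAs of most cluster genes end in a stem-loop instead of a poly(A) tail and are made mainly in S phase. Several cluster genes also give polyadenylated mRNA in cells that no longer divide. The bulb consists mostly of post-mitotic neurons and receives young neurons born in the adult forebrain. Labelling followed a kit that primes RNA along its length, so a poly(A) tail was not required for detection. Paralogous histone genes have near-identical coding sequences, and a probe set may also bind the RNA of its paralogs. Differences between paralogs below are therefore differences between probe sets.

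The array values were log2 signals normalized across arrays by the authors, with array medians of 6.92 to 6.97. Negative-control probe sets had array medians of 6.87 to 7.12. The mean signal of 46 histone genes lay above and that of 11 below this range, and single values ran between 3.36 and 15.38. The dim genes were 5 of H2B, 3 of H1, 2 of H3 and 1 of H4. The probe sets Hist2h2aa1 and Hist2h2aa2 had the same values in every array, as did Hist2h3c1 and Hist2h3c2, so the 59 genes gave 57 distinct profiles. With 3 arrays per group the precision is limited. The median standard error (SE) of a difference between groups was 0.21 over all genes and 0.20 over the histone genes. Markers of bulb neurons were bright in every array, with list means of 12.09 to 12.69. Markers of cortex and anterior olfactory areas averaged 10.13 to 10.20 in 3 arrays, replicate 2 of 1% LA, replicate 2 of 10% LA and replicate 3 of vehicle, against 9.26 to 9.67 in the other 6. Each group held 1 such array.

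No histone gene passed limma's moderated test with Benjamini-Hochberg adjustment over all 21367 genes. At 1% LA against vehicle, 0 of 59 passed an adjusted p of 0.05 and the lowest adjusted p was 0.998, with 0% of all genes passing. At an unadjusted p under 0.05, 6 histone genes had a higher and 5 a lower mean at 1% LA, in all 18.6% of the 59, where 3.42% of all genes met that threshold (1.76% higher and 1.67% lower). Hist1h4c is among the 6, and the count without it was 10 of 58 (17.2%). Without vehicle replicate 3 the count of the 59 at 1% LA was 9, where 5.45% of all genes met the threshold. At 10% LA against vehicle, 0 passed the adjusted threshold (0% of all genes), and 3 were higher and 0 lower at the threshold without adjustment. That is 5.08% of the histone genes, against 3.78% of all genes (2.06% higher and 1.71% lower). With Hist1h4c set aside it was 2 of 58 (3.45%), below the share of all genes. At 10% against 1% LA, 0 passed the adjusted threshold (0% of all genes), and 3 were higher and 2 lower at the unadjusted one. That is 8.47% of the histone genes against 3% of all genes (1.72% higher and 1.29% lower), and 4 of 58 (6.9%) with Hist1h4c set aside. The groups did not overlap for 11 histone genes at 1% LA against vehicle (9.22% of all genes), for 7 at 10% LA against vehicle (7.46%) and for 5 at 10% against 1% LA (7.1%). With Hist1h4c set aside these counts were 10, 6 and 4 of 58. All 3 comparisons draw on the same 9 arrays, and both comparisons with vehicle share the vehicle arrays.

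The median difference of the 59 genes was 0.05 at 1% LA and 0.09 at 10% LA against vehicle on the log2 scale, where the median of all genes was 0.003 and 0.01. A higher mean than in vehicle was found for 37 of 59 genes at 1% LA and for 37 of 59 at 10% LA, against 50.1% and 51.1% of all genes. The mean log2 signal of the 59 genes was 9.27, 9.30 and 9.36 in the vehicle arrays, 9.30, 9.40 and 9.40 at 1% LA and 9.44, 9.34 and 9.36 at 10% LA, and the groups overlapped. The core types differed in sign at 1% LA. H3 genes were higher in 10 of 10, H2B genes lower in 13 of 17, H2A genes higher in 12 of 16, H1 genes higher in 4 of 5 and H4 genes higher in 7 of 11. The median differences at 1% LA were 0.24 for H3, 0.19 for H1, 0.06 for H4, 0.04 for H2A and -0.15 for H2B. No test of the difference between core types was made. In bulk tissue, fewer cells of a type and less RNA per cell cannot be told apart.

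**Figure D1:**
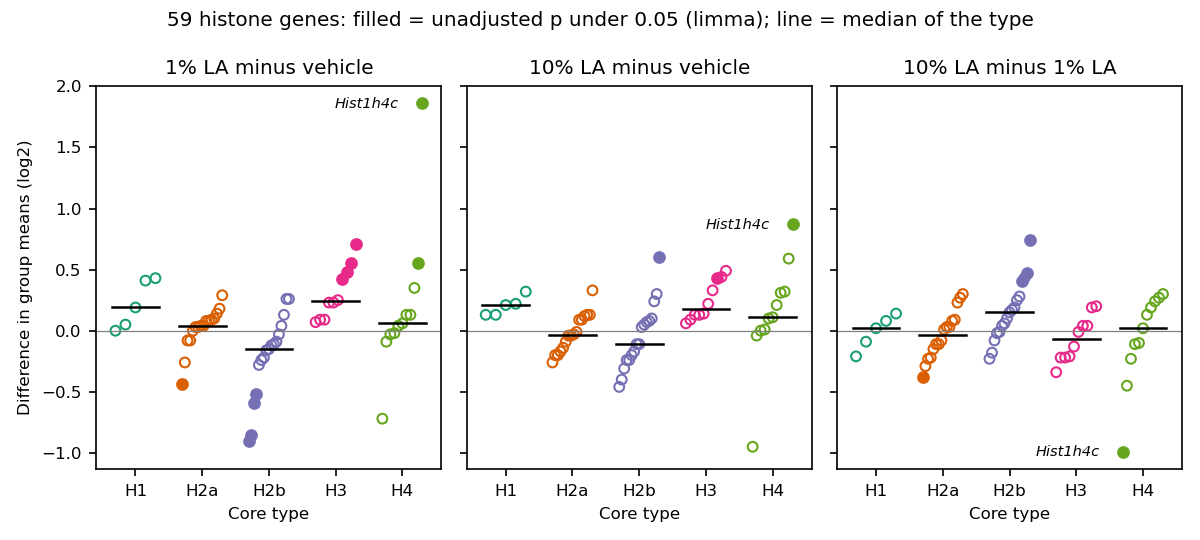
Differences in group means on the log2 scale for the 59 histone genes, by core type, for 1% LA minus vehicle, 10% LA minus vehicle and 10% LA minus 1% LA. Filled points had an unadjusted p under 0.05 with limma, and the line is the median of the type: the H3 points all lie above 0 in both comparisons with vehicle, 13 of the 17 H2B points lie below 0 at 1% LA, and Hist1h4c lies at 1.86, 0.87 and -0.99.

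Hist1h4c, one of many genes that encode the same H4 protein, had the largest difference of the family in the comparison of 1% LA with vehicle. Its log2 signal was 10.58, 10.26 and 10.21 in the vehicle arrays, 11.64, 13.06 and 11.94 at 1% LA and 10.77, 11.39 and 11.50 at 10% LA. All 6 LA arrays lay above all 3 vehicle arrays, and all 3 arrays at 1% lay above all 3 at 10%. The means were 10.35 ± 0.20 in vehicle, 12.21 ± 0.75 at 1% LA and 11.22 ± 0.39 at 10% LA (SD, n = 3 each). The log2 difference from vehicle was 1.86 ± 0.33 at 1% LA (SE), a 3.64-fold difference of means, and 0.87 ± 0.33 at 10% LA, a 1.83-fold difference. Between the doses, 10% minus 1% LA was -0.99 ± 0.33. Among all 21367 genes, Hist1h4c ranked 10 by its difference at 1% LA and 49 at 10% LA, from the most positive down. In the authors' deposited tables its fold change was 3.2 at 1% and 2.31 at 10% against control, computed from averages that are not the arithmetic means used here. In the authors' deposited tables Hist1h4c was the 1 histone gene past their joint fold and p criterion at each dose. Hist1h2bc, with a deposited fold change of -2 at 1% LA, lay at the fold cutoff and was not past it. The 1.83-fold difference of Hist1h4c by arithmetic means at 10% LA is below that cutoff. The share of all genes past the criterion was not counted.

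The highest of the 9 values, 13.06, came from replicate 2 of 1% LA, an array with high cortical markers. The other high-cortical arrays were vehicle replicate 3, with the lowest vehicle value of Hist1h4c at 10.21, and 10% LA replicate 2, with the middle value of its group. Without these 3 arrays the difference of Hist1h4c from vehicle was 1.37 at 1% LA, and over the 19 alternatives tried it lay between 1.37 and 2.15. Without vehicle replicate 3 alone it was 1.79. The difference from vehicle at 10% LA lay between 0.72 and 1.10. The 10% minus 1% difference lay between -1.28 and -0.57, the value without replicate 2 of 1% LA.

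Promoter sequence is shown for Hist1h4c beside another H4 gene of the same cluster that did not share its pattern, Hist1h4d, for the H3 genes Hist1h3h and Hist1h3g, whose signals followed that of Hist1h4c most closely, and for the neighbouring H2B genes Hist1h2bg and Hist1h2bf, with lower means at 1% LA. Each line gives the 150 bases before the RefSeq transcription start, 5′ to 3′ on the gene's strand, from RefSeq on GRCm38.p6. Capitals mark TATAAA (the TATA box), CCAAT or its complement ATTGG (the CCAAT box) and ATTTGCAT (the octamer bound by OCT factors), each searched on both strands. Hist1h4c lies at chr13:23698459-23698608 (minus strand), Hist1h4d at chr13:23581418-23581567 (plus), Hist1h3h at chr13:21717478-21717627 (plus), Hist1h3g at chr13:23535268-23535417 (plus), Hist1h2bg at chr13:23571250-23571399 (plus) and Hist1h2bf at chr13:23574208-23574357 (minus).
Hist1h4c: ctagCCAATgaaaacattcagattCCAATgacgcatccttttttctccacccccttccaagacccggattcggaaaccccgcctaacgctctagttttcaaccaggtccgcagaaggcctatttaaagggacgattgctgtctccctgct
Hist1h4d: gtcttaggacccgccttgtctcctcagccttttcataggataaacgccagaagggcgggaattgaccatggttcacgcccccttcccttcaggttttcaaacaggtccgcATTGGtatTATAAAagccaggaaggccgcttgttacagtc
Hist1h3h: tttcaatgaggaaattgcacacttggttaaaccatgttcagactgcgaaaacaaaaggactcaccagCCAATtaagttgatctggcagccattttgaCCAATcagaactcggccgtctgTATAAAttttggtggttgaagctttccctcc
Hist1h3g: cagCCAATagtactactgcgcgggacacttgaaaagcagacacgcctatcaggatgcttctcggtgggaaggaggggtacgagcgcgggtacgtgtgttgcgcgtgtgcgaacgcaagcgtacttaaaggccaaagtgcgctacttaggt
Hist1h2bg: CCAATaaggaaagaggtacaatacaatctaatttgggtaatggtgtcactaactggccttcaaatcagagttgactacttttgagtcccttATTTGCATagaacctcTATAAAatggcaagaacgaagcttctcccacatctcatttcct
Hist1h2bf: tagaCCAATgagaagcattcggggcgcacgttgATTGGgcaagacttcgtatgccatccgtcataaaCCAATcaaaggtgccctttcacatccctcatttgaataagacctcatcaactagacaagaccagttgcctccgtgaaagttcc

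The stretch of Hist1h4c holds 2 CCAAT boxes and none of the other motifs. That of Hist1h4d holds 1 TATAAA and 1 CCAAT box on the opposite strand, and the octamer appears only in Hist1h2bg among the 6 shown. Over windows of 300 bases, 250 before to 50 after the start, 51 of the 59 genes had a sequence. CCAAT was in 44 of these 51 windows (86.3%), against 37.4% of all 32851 promoter windows. It was in every window of H1, H2A, H2B and H3 genes but in 3 of 10 H4 windows, those of Hist1h4a, Hist1h4c and Hist1h4d. TATAAA was in 29 of the 51 (56.9%, against 13.6% of all windows). The octamer was in 6 of 14 H2A and 6 of 14 H2B windows and in 0 of the H1, H3 and H4 windows, against 1.74% of all windows. These matches describe the letters and say nothing of which factor binds.

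The other 10 H4 genes had differences of both signs. At 1% LA against vehicle 6 were higher and 4 lower, with a median of 0.05, and 1 had an unadjusted p under 0.05 with limma (3.42% of all genes). At 10% LA against vehicle 7 were higher and 3 lower, with a median of 0.10, and 0 had an unadjusted p under 0.05 (3.78% of all genes). The groups of all 10 overlapped in each comparison. Of all genes, 9.22% did not overlap at 1% LA and 7.46% at 10% LA against vehicle, and 7.1% at 10% against 1% LA. For 10 genes, counts of 0 or 1 are near these shares. Over the 9 arrays the signal of Hist1h4c had a median Pearson r of 0.06 with the other H4 genes (range -0.61 to 0.32), given as a description of arrays that share groups and normalization. Hist1h4c minus the mean of the other 10 H4 genes was -1.01, -1.48 and -1.75 in the vehicle arrays, 0.03, 1.31 and -0.10 at 1% LA and -1.51, -0.53 and 0.21 at 10% LA on the log2 scale. The 1% arrays lay above all vehicle arrays on this measure, and the 10% arrays overlapped both groups.

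**Figure D2:**
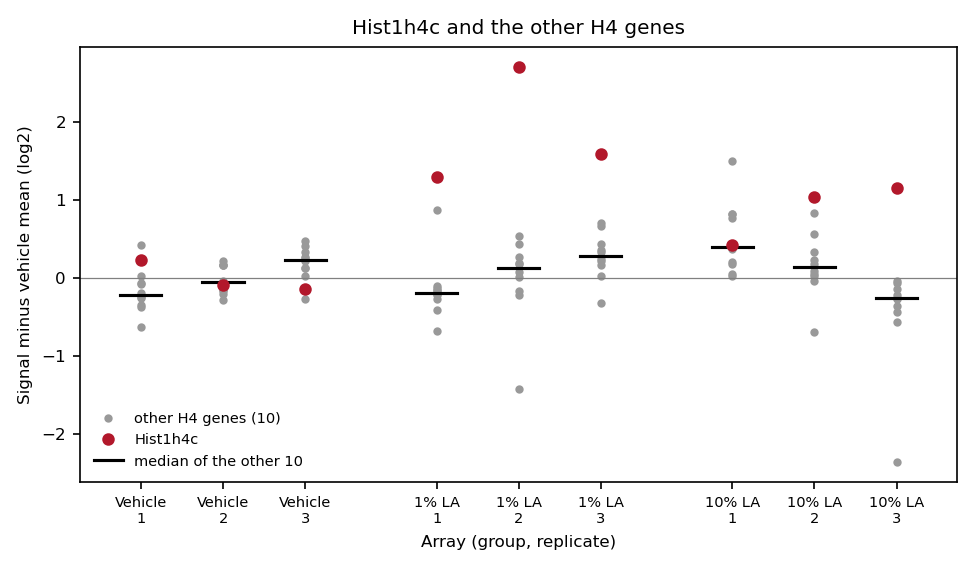
Log2 signal minus the gene's vehicle mean for Hist1h4c and the other 10 H4 genes in each array, with the 3 replicates of vehicle, 1% LA and 10% LA side by side and a line at the median of the other 10. Hist1h4c lies above the other H4 genes in all 3 arrays at 1% LA and in replicates 2 and 3 of 10% LA, and within them in replicate 1 of 10% LA and in the vehicle arrays.

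Within the 10% LA group the H4 genes spread widely. Counting Hist1h4c, 9 of 11 were highest in replicate 1 and 9 of 11 lowest in replicate 3, whereas Hist1h4c was lowest in replicate 1 and highest in replicate 3. Hist1h4d had the largest spread within groups of the H4 genes. Its log2 signal was 13.22, 13.78 and 13.69 in vehicle, 13.15, 12.13 and 13.24 at 1% LA and 13.77, 12.87 and 11.20 at 10% LA. Its difference from vehicle was -0.72 ± 0.53 at 1% LA and -0.95 ± 0.53 at 10% LA (SE), the lowest of the family at 10% LA, and its groups overlapped. Hist1h4h, with 10.80, 11.17 and 11.03 in vehicle, 10.83, 11.54 and 11.67 at 1% LA and 12.50, 11.83 and 10.43 at 10% LA, differed from vehicle by 0.35 ± 0.42 and 0.59 ± 0.42. The highest and the lowest value of Hist1h4h were both from the 10% group. Hist1h4a, the brightest H4 probe set, ranged between 14.35 and 15.38 and differed from vehicle by 0.13 at 1% LA and 0.32 at 10% LA. Hist4h4, an H4 gene outside the main clusters, was near the negative controls with 6.68, 6.36 and 6.91 in vehicle, 7.52, 6.72 and 7.36 at 1% LA and 6.83, 6.83 and 6.58 at 10% LA. Its difference at 1% LA was 0.55 ± 0.23, at an unadjusted p under 0.05, although the groups overlapped.

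The H3 genes were the core type with the most even sign. At 1% LA against vehicle 10 of 10 had a higher mean (50.1% of all genes), 4 at an unadjusted p under 0.05 (1.76% of all genes). Of the 10, 5 did not overlap with vehicle, where 4.58% of all genes were higher without overlap. At 10% LA 10 of 10 were again higher (51.1% of all genes), 1 at an unadjusted p under 0.05 (2.06% of all genes), and 3 did not overlap (4.1%). Of these 3, Hist1h3a and Hist1h3f were dim, and Hist1h3f was the gene at the unadjusted threshold. With only probe sets at or above the median signal, 8 of 8 H3 genes were higher at 10% LA. Of the 8, 0 had an unadjusted p under 0.05 with limma there (3.9% of all genes). None of the 10 passed the adjusted threshold in either comparison, and 2 of the 10 are the probe sets with shared values. The mean log2 signal of the H3 genes was 8.58, 8.76 and 8.69 in vehicle, 8.89, 9.21 and 8.86 at 1% LA and 8.82, 8.96 and 8.98 at 10% LA. All 6 LA arrays lay above all vehicle arrays. Between the doses 4 of 10 were higher at 10% and 6 lower, with a median of -0.07, which was 0.07 without replicate 2 of 1% LA.

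Hist1h3h, Hist1h3g and Hist1h3i were the histone genes whose signal correlated most with Hist1h4c over the 9 arrays, with Pearson r of 0.92, 0.86 and 0.86, against a median r of 0.60 for the 10 H3 genes. In mouse all 3 encode the H3.1 protein, a replication-coupled form. Hist1h3h had 9.79, 9.53 and 9.64 in vehicle, 10.11, 10.91 and 10.06 at 1% LA and 9.89, 10.42 and 10.11 at 10% LA. Its groups did not overlap with vehicle at either dose, and the differences were 0.71 ± 0.24 at 1% LA and 0.49 ± 0.24 at 10% LA (SE). Hist1h3g had 7.60, 7.94 and 7.61 in vehicle, 7.95, 8.76 and 8.08 at 1% LA and 7.93, 8.25 and 7.96 at 10% LA. Its 1% arrays lay just above the vehicle arrays, its 10% arrays overlapped them, and the difference was 0.55 ± 0.22. Hist1h3i differed by 0.42 ± 0.19 at 1% LA and 0.22 ± 0.19 at 10% LA. Hist1h3e, which encodes H3.2, had 10.08, 10.50 and 10.27 in vehicle, 10.67, 10.83 and 10.80 at 1% LA and 10.26, 10.53 and 10.49 at 10% LA. Its difference was 0.48 ± 0.17 at 1% LA and 0.14 ± 0.17 at 10% LA, and the 1% arrays lay above all others. Hist1h3f, a dim H3 gene, differed by 0.23 ± 0.18 at 1% LA and 0.43 ± 0.18 at 10% LA. The dimmest, Hist1h3a, stayed between 3.45 and 4.33, and the brightest, Hist2h3c2, differed by 0.09 at 1% LA and 0.13 at 10% LA.

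Part of the H3 pattern at 1% LA rested on 1 array. Replicate 2 of 1% LA, with high cortical markers, was the highest of all 9 arrays in 7 of 10 H3 genes. Without it, 7 of 10 were higher than vehicle and 1 had an unadjusted p under 0.05 (3.44% of all genes). Without all 3 high-cortical arrays, 10 of 10 were higher, with the median at 0.24 as before, and 0 had an unadjusted p under 0.05 (5.81% of all genes). Without vehicle replicate 1 all 10 were higher and 1 met that threshold (2.65% of all genes). The H3 mean in the other high-cortical arrays was 8.69 in vehicle replicate 3 and 8.96 in replicate 2 of 10% LA. Both were the middle values of their groups. The part of cortical tissue in the H3 values was not tested.

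**Figure D3:**
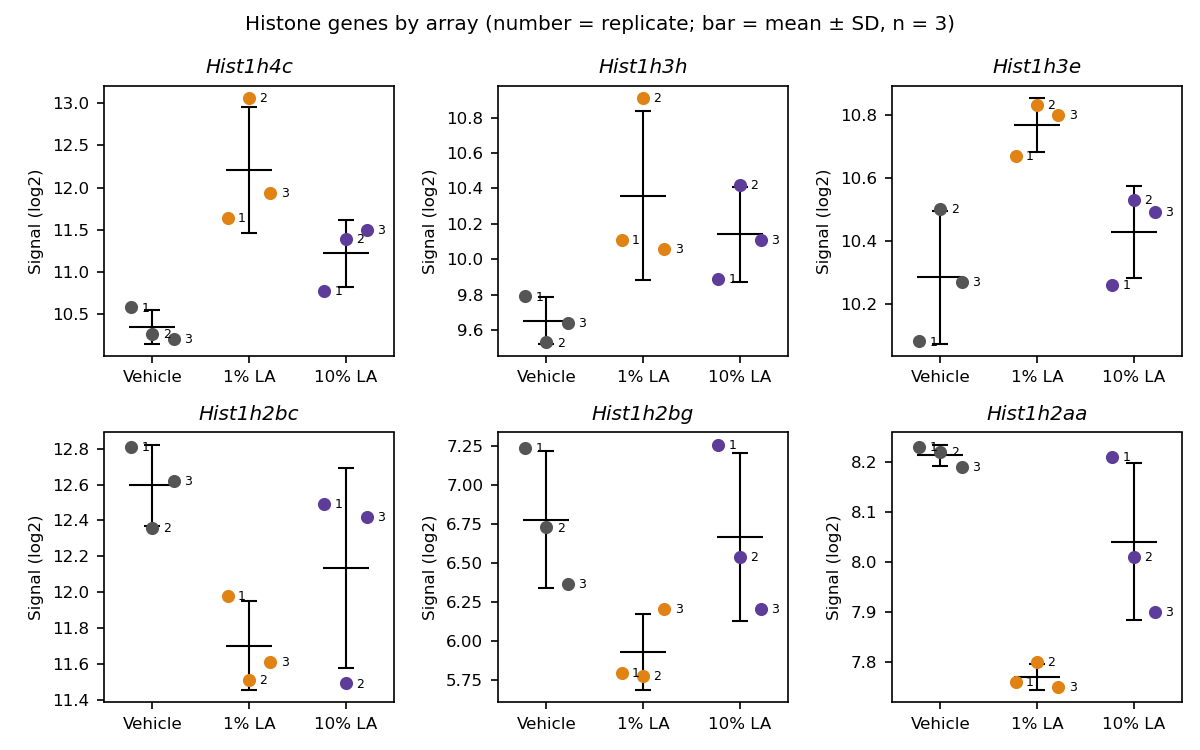
Log2 signal of 6 histone genes in the 9 arrays, by group (vehicle, 1% LA, 10% LA), with replicate numbers beside the points and bars for mean ± SD of 3 arrays; each panel has its own axis. Hist1h4c, Hist1h3h and Hist1h3e lie higher at 1% LA than in vehicle without overlap, and Hist1h2bc, Hist1h2bg and Hist1h2aa lie lower without overlap.

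The H2B genes mostly had lower means at 1% LA. Of 17, 13 had a lower mean than vehicle (49.3% of all genes), 4 of them at an unadjusted p under 0.05 (1.67% of all genes), and 3 did not overlap (4.65% of all genes lower without overlap). At 10% LA 9 of 17 were lower (48.2% of all genes) and 8 higher than vehicle. Against 1% LA, 12 of 17 were higher at 10% LA (50.4% of all genes), with a median difference of 0.15. Of these, 3 had an unadjusted p under 0.05 (1.72% of all genes), and 0 without replicate 1 of 10% LA. The mean log2 signal of the H2B genes was 7.73, 7.62 and 7.58 in vehicle, 7.39, 7.50 and 7.43 at 1% LA and 7.72, 7.36 and 7.73 at 10% LA. The 1% arrays lay below all vehicle arrays, and replicate 2 of 10% LA lay below all other arrays. Leaving out any 1 vehicle or 1% array left 12 to 14 of 17 lower at 1% LA, with 2 to 4 at an unadjusted p under 0.05.

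Hist1h2bc, the brightest H2B probe set, had 12.81, 12.36 and 12.62 in vehicle, 11.98, 11.51 and 11.61 at 1% LA and 12.49, 11.49 and 12.42 at 10% LA. Its difference from vehicle was -0.90 ± 0.26 at 1% LA, the lowest of the family there, and -0.46 ± 0.26 at 10% LA. In the RefSeq order of genes Hist1h2bc and Hist1h4c are separated only by the testis H1 gene Hist1h1t, so the largest positive and the most negative difference at 1% LA lay almost side by side. Hist1h1t itself was dim, between 3.36 and 4.09, and differed by 0.05 ± 0.23. Hist1h2bg, a dim gene, had 7.24, 6.73 and 6.37 in vehicle, 5.80, 5.78 and 6.21 at 1% LA and 7.26, 6.54 and 6.21 at 10% LA. It differed by -0.85 ± 0.29 at 1% LA from vehicle and by 0.74 ± 0.29 at 10% from 1% LA. Its neighbour Hist1h2bf differed by -0.52 ± 0.20 at 1% LA, with 7.74, 7.87 and 8.03 there against 8.26, 8.78 and 8.16 in vehicle. The adjacent H2A gene Hist1h2ae had the opposite sign, 0.29 ± 0.16 at 1% LA from vehicle and -0.38 ± 0.16 at 10% from 1% LA.

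Hist2h2be encodes H2BE, a variant best known from mouse olfactory sensory neurons, where its level goes down with odour-driven activity and bears on how long the neurons live. Its log2 signal was 8.37, 7.46 and 8.10 in vehicle, 7.19, 7.46 and 7.51 at 1% LA and 7.62, 7.23 and 7.89 at 10% LA. The difference from vehicle was -0.59 ± 0.25 at 1% LA, at an unadjusted p under 0.05, and -0.40 ± 0.25 at 10% LA, and the groups overlapped. Sensory neurons send their axons into the bulb, and their markers were also lower at 1% LA, in 11 of 12 genes with a median of -0.26. Of all genes 49.3% were lower. Of the 12 markers, 1 had an unadjusted p under 0.05 (3.42% of all genes). The list mean of these markers was 8.57, 7.83 and 8.17 in vehicle, 7.86, 7.56 and 8.03 at 1% LA and 7.98, 8.37 and 8.32 at 10% LA. Within vehicle the order of the arrays was the same for Hist2h2be and for the marker mean, and within 1% LA and 10% LA it differed. At 10% LA replicate 2 had the lowest Hist2h2be and the highest marker mean, but the markers had no common order there. Gnal, Cnga2, Cnga4, Adcy3, Ano2 and Gfy were highest in replicate 2. Omp, Stoml3, Gng13, Rtp1 and Umodl1 were highest in replicate 3, as was Hist2h2be, and Ric8b was highest in replicate 1. At 10% LA 8 of 12 markers were higher than vehicle (51.1% of all genes) while Hist2h2be was lower. The part of these markers in the Hist2h2be values was not tested.

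Besides Hist1h2bg, the H2B genes that met the unadjusted threshold in comparisons with 10% LA were Hist3h2bb-ps and Hist1h2bn. The pseudogene Hist3h2bb-ps, dim in every array but one, had 6.18, 6.36 and 6.11 in vehicle, 6.20, 6.23 and 6.60 at 1% LA and 7.23, 6.55 and 6.67 at 10% LA. It differed by 0.60 ± 0.21 at 10% LA from vehicle and by 0.47 ± 0.21 from 1% LA. Hist1h2bn differed by 0.41 ± 0.17 at 10% from 1% LA and by 0.24 ± 0.17 from vehicle. The dimmest H2B probe set, Hist3h2ba, stayed between 4.71 and 5.47.

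Among the H2A genes, the medians were 0.04 at 1% LA and -0.04 at 10% LA. At 1% LA 12 of 16 were higher than vehicle (50.1% of all genes) and 4 lower, within -0.44 and 0.29. At 10% LA 6 were higher (51.1% of all genes) and 10 lower. Hist1h2aa, a testis form of H2A, had the lowest difference of the 4 lower at 1% LA. Its signal was 8.23, 8.22 and 8.19 in vehicle, 7.76, 7.80 and 7.75 at 1% LA and 8.21, 8.01 and 7.90 at 10% LA. The replicates lay close together within the vehicle and the 1% group, and the difference was -0.44 ± 0.15 at 1% LA. Hist1h2aa and Hist1h2bc met the unadjusted threshold at 1% LA under all 19 alternatives tried. Hist1h2ak had the largest spread within groups, with a range of 8.41 to 9.22. The brightest, Hist2h2aa1, differed by -0.08 at 1% LA and -0.20 at 10% LA.

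Of the linker histone genes, 4 of 5 were higher at 1% LA and 5 of 5 at 10% LA against vehicle, with medians of 0.19 and 0.21. Of all genes, 50.1% and 51.1% were higher. Among the 5, 0 met the unadjusted threshold at either dose by limma, against 3.42% and 3.78% of all genes. For 5 genes, a count of 0 is near these shares. Hist1h1c, the brightest, had 7.74, 7.32 and 7.45 in vehicle, 7.64, 7.69 and 8.47 at 1% LA and 7.47, 7.73 and 7.98 at 10% LA. Hist1h1a had 6.55, 6.65 and 7.56 in vehicle, 7.45, 7.06 and 7.49 at 1% LA and 6.97, 7.36 and 7.39 at 10% LA. Both overlapped between groups, with differences of 0.43 ± 0.24 and 0.41 ± 0.26 at 1% LA.

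Most unadjusted calls of single genes were lost when particular arrays were left out. Every such fit had fewer arrays. In several the difference was as large as in the full fit or larger, as for Hist1h2bf and Hist2h2be without replicate 2 of 1% LA. At 1% LA against vehicle, Hist1h3h no longer met the threshold without replicate 2 of 1% LA, where its difference was 0.43, nor Hist1h3g (0.30 there). Hist1h3g also missed it without vehicle replicate 1 or 3 (0.49 each), and Hist1h3e without vehicle replicate 1 (0.38). Hist1h2bg missed it without vehicle replicate 1 (-0.62). Hist1h2bf missed it without vehicle replicate 2 (-0.33) or without replicate 1 (-0.45) or 2 (-0.52) of 1% LA. Hist2h2be missed it without vehicle replicate 1 (-0.39) or 3 (-0.53), or without replicate 1 (-0.49) or 2 (-0.63) of 1% LA. Hist1h3i and Hist4h4 each missed it when any of several arrays was left out, with differences of 0.26 to 0.52 and 0.39 to 0.92 over all alternatives. At 10% LA against vehicle, Hist3h2bb-ps missed it without replicate 1 of 10% LA (0.39), and Hist1h3f without replicate 1 (0.43) or 3 (0.35) of 10% LA or vehicle replicate 1 (0.30) or 3 (0.46). The count of 3 at 10% LA includes Hist1h4c, which left it without replicate 2 (0.78) or 3 (0.73) of 10% LA or vehicle replicate 2 (0.82) or 3 (0.80). At 10% against 1% LA, 0 of the 5 genes met it without replicate 1 of 10% LA, where Hist1h4c differed by -0.77.

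**Figure D4:**
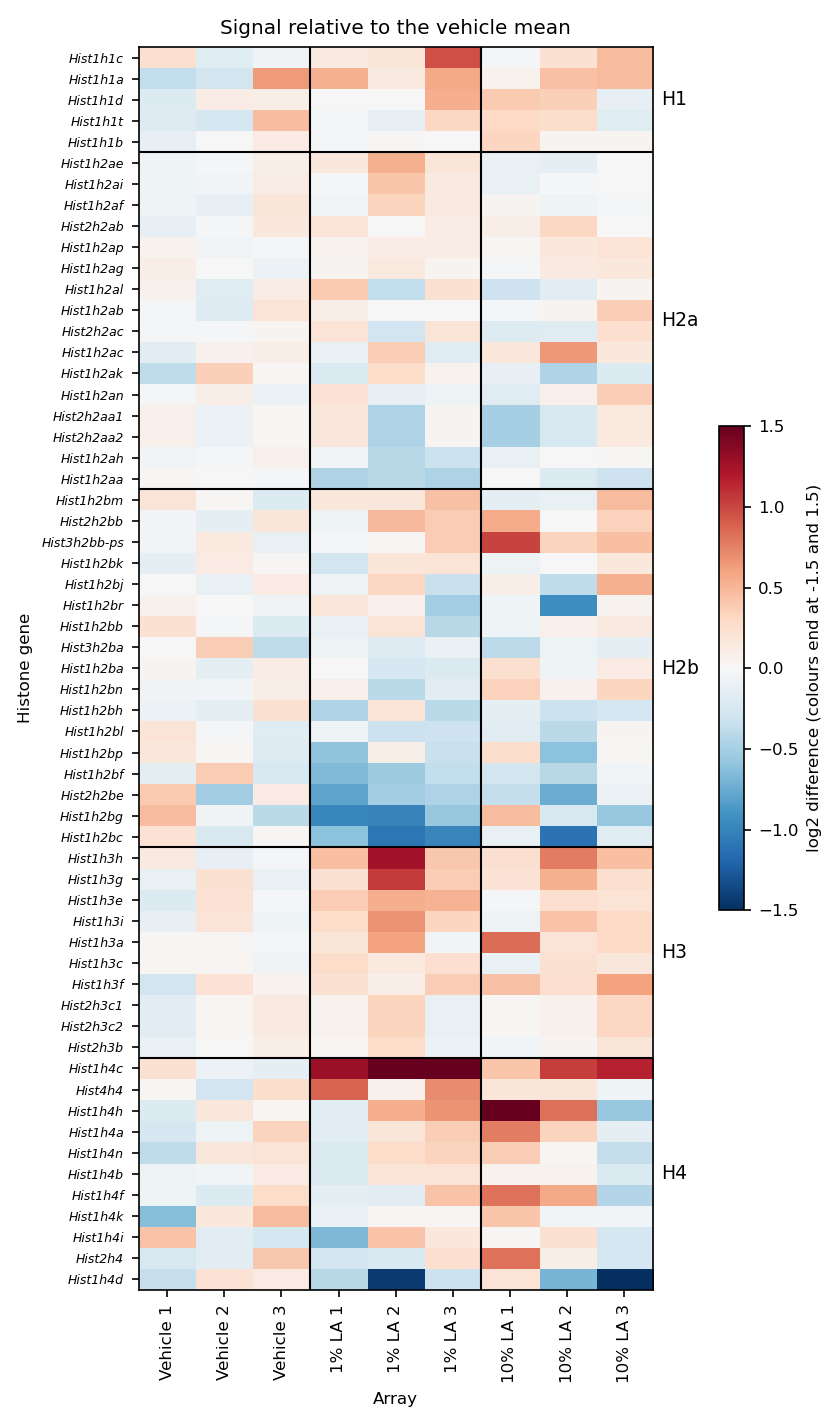
Log2 signal of each of the 59 histone genes minus its vehicle mean, with the 9 arrays in columns (vehicle, 1% LA, 10% LA) and genes in rows by core type, ordered within a type by the difference at 1% LA. Colours end at -1.5 and 1.5; the Hist1h4c row is the darkest red at 1% LA, and most H4 rows are red in replicate 1 and blue in replicate 3 of 10% LA.

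Genes that act with the cluster histones differed from vehicle by -0.37 to 0.50 on the log2 scale over both doses. The lists that follow were drawn up with earlier results of these data known. Of 11 replication-independent histone genes, which serve chromatin outside S phase, 0 had an unadjusted p under 0.05 with limma at either dose. Of all genes, 3.42% at 1% LA and 3.78% at 10% LA met that threshold. For 11 genes, a count of 0 is near these shares. The median difference was 0.09 at both doses. At 1% LA 2 of the 11 were higher than vehicle without overlap (4.58% of all genes), H2afx, by 0.43 ± 0.22, and H2afy. At 10% LA all 11 overlapped with vehicle. H3f3a, one of the genes for H3.3, differed by 0.09 ± 0.19 at 1% LA and 0.19 ± 0.19 at 10% LA. H3f3b, also for H3.3, differed by -0.10 ± 0.20 and 0.15 ± 0.20, and H2afy, for macroH2A, by 0.26 ± 0.17 and 0.18 ± 0.17. Of 25 genes for histone mRNA processing and histone chaperones, 0 had an unadjusted p under 0.05 with limma at either dose. Of all genes, 3.42% and 3.78% met that threshold. The medians were -0.05 at 1% LA and -0.03 at 10% LA. At 1% LA 2 of the 25 did not overlap with vehicle (9.22% of all genes), 1 higher and 1 lower. At 10% LA 4 of the 25 did not overlap (7.46% of all genes), 2 higher and 2 lower. Zfp473, of the U7-dependent processing complex, differed by -0.37 ± 0.26 at 10% LA, and Cpsf2, of the cleavage complex, by -0.33 ± 0.16. Lsm10, a protein of the U7 particle, differed by 0.02 ± 0.31 at 1% LA and -0.26 ± 0.31 at 10% LA. Slbp, which binds the histone stem-loop, differed by -0.11 ± 0.18 at 1% LA and 0.14 ± 0.18 at 10% LA.

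Of 29 genes of DNA replication and S phase, 1 was higher at 1% LA at an unadjusted p under 0.05 (3.42% of all genes) and 0 at 10% LA (3.78% of all genes). That gene was Cdc6, which loads the replicative helicase, with 4.22, 4.24 and 4.91 in vehicle, 4.68, 5.26 and 4.94 at 1% LA and 4.86, 4.52 and 4.80 at 10% LA, all dim. The list means per array ran between 6.11 and 6.24, below the negative-control medians. Mki67, a marker of cycling cells, differed by 0.10 ± 0.16 at 1% LA and 0.02 ± 0.16 at 10% LA. The list's median difference from vehicle was 0.03 at 1% LA and 0.02 at 10% LA, with 16 and 17 of 29 higher. Ccne2, cyclin E2, differed by 0.41 ± 0.24 at both doses. Of the helicase subunit genes, Mcm4 differed by -0.20 ± 0.22 at 1% LA and -0.34 ± 0.22 at 10% LA, and Mcm6 by 0.25 ± 0.28 and 0.36 ± 0.28. Dcx, a marker of neuroblasts, was bright and differed by -0.16 ± 0.27 at 1% LA and 0.01 ± 0.27 at 10% LA.

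**Figure D5:**
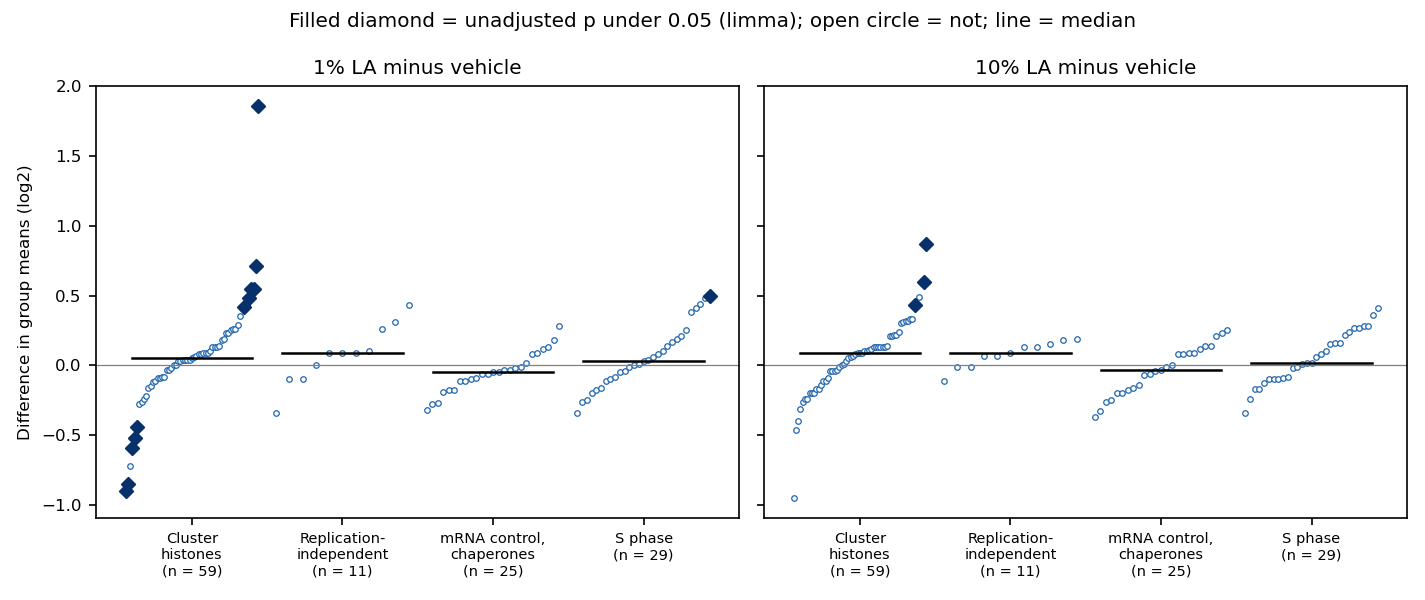
Differences in group means on the log2 scale for the 59 cluster histones, 11 replication-independent histone genes, 25 genes of histone mRNA control and chaperones and 29 S-phase genes, for 1% LA minus vehicle and 10% LA minus vehicle. Filled diamonds had an unadjusted p under 0.05 with limma and the line is the list's median; 11 cluster histones and 1 S-phase gene are filled at 1% LA, and 3 cluster histones at 10% LA.

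Markers of other cell types also differed between groups without passing the adjusted threshold. Microglial markers were lower than vehicle in 10 of 10 genes at 1% LA (median -0.14) and 9 of 10 at 10% LA (median -0.23). At either dose 0 had an unadjusted p under 0.05 with limma, against 3.42% and 3.78% of all genes. Of all genes, 49.3% and 48.2% were lower. Their list mean was 8.72 to 8.93 in vehicle, 8.22 to 8.92 at 1% LA and 8.14 to 8.80 at 10% LA. Endothelial and mural markers were lower in 8 of 10 at both doses, with medians of -0.18 and -0.27. At an unadjusted p under 0.05, 1 of them was higher and 2 lower at 1% LA, and 1 lower at 10% LA. That is 30% and 10% of this list, against 3.42% and 3.78% of all genes. Neuroblast markers were higher in 7 and lower in 7 of 14 at 1% LA. Their part in the histone values was not tested.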

How the data were processed

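Olfactory bulb RNA from 9 samples was measured, 3 for each of vehicle, 1% and 10% linalyl acetate, with groups and replicate numbers from the titles. Per the labels, biotin-labelled material was prepared with the WT PLUS kit from total RNA. Per the submitters' processing notes, the authors used RMA, limma and Transcriptome Analysis Console 4; no genome build was named there. The authors deposited log2 signals, rounded to 2 decimals. They also deposited a table per dose against control with a signed fold change (a score, negative where LA is lower) and p-values from their own test, used here only where named. Of the signals, 27 cells of 1 array had been turned into calendar dates and were decoded; 0 were histone genes.

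The log2 signals of the 21367 probe sets with 1 gene symbol were fitted with limma 3.58.1 in R 4.3.3 (a mean per group, moderated SE, no covariate), and p-values were adjusted by Benjamini-Hochberg over all of them. The 836 probe sets with several symbols and 3 with none were left out. No filter or pseudocount was applied. Differences are log2, LA minus vehicle or 10% minus 1%. Scripts were tested on simulated data. Genes were named by rule: Hist1h4c, members at an unadjusted p under 0.05, the 4 largest differences per comparison, the brightest, dimmest and most variable of each core type, and the 3 most correlated with Hist1h4c; in the related lists, members at an unadjusted p under 0.05, the 3 largest differences at 10% LA, and markers of cycling cells and neuroblasts. Slbp and H2afx were added after their values were seen. Outside this rule, the sensory neuron markers were named for their order by array and Hist1h2al for its RefSeq symbol. Further histone genes were named for probe sets with shared symbols, shared values or close profiles. Members, lists and the named H4 gene were chosen with earlier results of these data known. Promoter windows came from RefSeq (GRCm38.p6), and 58 of 59 members matched 1 RefSeq gene. Alternatives covered another value table, scaling, variance models, array weights, a signal filter, a replicate block, the groups fitted and each array left out.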

Additional observations from a re-analysis of the deposited data

How the results depend on the processing

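Under all 19 alternatives, 0 histone genes passed the adjusted threshold in any of the 3 comparisons. Some other genes passed it when arrays were left out. Without the 3 arrays of higher cortical signal, 12 of all genes passed at 10% LA and 11 at 1% LA against vehicle. Without vehicle replicate 3 the numbers were 12 and 7. The histone count at an unadjusted p under 0.05 for 10% against 1% LA (5 genes) became 3 with the replicate block (3.03% of all genes). It was 3 with array weights (2.79%), 3 with only probe sets at or above the median signal (2.23%) and 2 with only those groups fitted (2.72%). Leaving out 1 array at a time gave 0 to 6, with 0 without replicate 1 of 10% LA (3.22% of all genes). It gave 3 without replicate 1 of 1% LA (2.98%) and 2 without vehicle replicate 2 (2.67%). At 10% LA against vehicle (3 genes) the count was 1 with the signal filter (3.9% of all genes) and 6 without the 3 arrays of higher cortical signal (5.41%). With 1 array left out it was 2 to 5, the 5 without replicate 2 of 1% LA (3.49%). At 1% LA against vehicle (11 genes) the count was 5 to 11 with 1 array left out. It was 5 without vehicle replicate 1 (2.65% of all genes) and 7 without replicate 2 of 1% LA (3.44%). The causes were not tested, beyond fewer samples or probe sets by construction. The median difference stayed between 0.01 and 0.12 at 1% LA, 0.06 and 0.12 at 10% LA and -0.01 and 0.08 at 10% against 1% LA, with -0.01 without replicate 3 of 10% LA. The H3 median at 10% against 1% LA (-0.07) was 0.07 without replicate 2 of 1% LA and 0.02 without the 3 arrays of higher cortical signal, and the H2B median at 10% LA against vehicle (-0.11) was 0.03 without replicate 2 of 10% LA. Same-numbered arrays of different groups correlated between -0.161 and 0.279 in their deviations, with 2 of 9 pairs over 0.1, so the numbers were not taken as pairs. The replicate block gave 11 histone genes at 1% LA (3.42% of all genes) and 4 at 10% LA (3.7%) against vehicle. It ended the unadjusted call of Cdc6. With 3 arrays a group, differences near the median SE of 0.21 could not be resolved, and the 11 dim genes carry the least signal over background.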

Other observations

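Probe sets with several symbols, at least 1 of them a histone gene, were left out of the counts, and 7 of them existed. The probe set shared by Hist1h2ad, Hist1h3b and Hist1h3d had 12.46, 12.53 and 12.56 in vehicle, 12.67, 12.56 and 12.88 at 1% LA and 12.59, 12.89 and 12.58 at 10% LA on the log2 scale. Its 1% and 10% arrays lay at or above the highest vehicle value, with differences of 0.19 ± 0.16 and 0.17 ± 0.16 (SE). The probe set shared by Hist1h2be and the linker histone gene Hist1h1e was dim, with 5.52, 5.53 and 5.62 in vehicle, 5.20, 5.17 and 5.14 at 1% LA and 5.21, 4.73 and 6.20 at 10% LA. Its 1% arrays lay below all vehicle arrays, with a difference of -0.39 ± 0.30. The probe set shared by Hist1h4j and Hist1h4m differed by -0.14 ± 0.20 at 1% LA and -0.04 ± 0.20 at 10% LA.

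The probe set of Hist1h2ap had the same values as one shared with Hist1h2ah, Hist1h2ai and Hist1h2ao, and that of Hist1h4n the same as one shared with Hist1h4m. Pairs of histone genes with close profiles over the 9 arrays, as Pearson r of the deviations from the group means, included Hist2h3b with Hist2h3c2 at 0.99, Hist2h4 with Hist1h4a at 0.95 and Hist2h2ac with Hist2h2aa1 at 0.94. Each pair encodes the same core type, and cross-binding of near-identical RNA was not tested.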
